A study of Mus musculus with 27 samples.

Results

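The transcripts of 10 secreted liver proteins were followed in TAMH mouse hepatocytes exposed to acetaminophen or to its regioisomer. The genes were Orm1, Orm2, Lcn2, Saa3, Hp, Hpx, Cp, Lect2, Itih4 and Lbp, and they were 10 of the 19938 genes measured. Each was read from probe sets of the Affymetrix Mouse Gene 1.0 ST array annotated to that symbol alone, and each of the 10 had 1 such probe set.

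TAMH is a hepatocyte line derived from mice carrying a transforming growth factor alpha transgene. All cultures belonged to this 1 line, at passages 25 to 35, and all of them, controls included, were kept in serum-free medium containing dexamethasone, insulin, transferrin and selenium. Confluent cells received 2 mM acetaminophen (APAP), 2 mM of its regioisomer AMAP, or control medium. RNA was taken after 2, 6 or 24 h. The molecules differ in the position of the ring hydroxyl group, which is para to the acetamide in APAP and meta in AMAP. The 9 groups were APAP, AMAP and control at 2 h, at 6 h and at 24 h, with 3 arrays each, and every group held 1 array numbered 30, 31 and 32, called its array number here. The numbers stand in the sample titles after a letter P, and the labels do not say whether they are passages. They also do not say whether the 3 samples of a group came from separate cultures, so p-values measure the spread between these samples.

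In the acute phase response, cytokines made during inflammation, chiefly interleukin 6 and interleukin 1, reach the hepatocyte and act through STAT3, C/EBP and NF-kB factors, with glucocorticoids acting alongside, to change which plasma proteins the liver secretes. Positive acute phase proteins bind drugs, iron, haem or bacterial products, or limit proteases. Hepatokines are liver proteins that act on other tissues, and several proteins are counted in both classes.

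Promoter sequences are shown for Lcn2 and Lect2, since these were among the members with called differences at 24 h. RefSeq promoters on build GRCm38.p6, each running from 250 bases before the start site to 50 after it, were given for 7 of the 10 members. Orm1, Hp and Lbp had no entry. The Lcn2 promoter (chr2:32387690-32387989, minus strand) carries in capitals a match to the C/EBP letters TTGCNNAA, with its first base at -216 relative to the start site, and a match to the glucocorticoid response element letters ACANNNTGT, with its first base at -152. The Lect2 promoter (chr13:56548489-56548788, minus strand) held no match to any of the 4 motifs searched and so has no capitals.
Lcn2: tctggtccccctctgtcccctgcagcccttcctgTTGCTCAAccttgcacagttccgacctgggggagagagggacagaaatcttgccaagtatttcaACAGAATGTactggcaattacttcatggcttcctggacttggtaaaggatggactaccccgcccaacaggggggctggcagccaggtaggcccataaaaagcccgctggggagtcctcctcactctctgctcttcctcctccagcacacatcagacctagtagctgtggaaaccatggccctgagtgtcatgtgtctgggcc
Lect2: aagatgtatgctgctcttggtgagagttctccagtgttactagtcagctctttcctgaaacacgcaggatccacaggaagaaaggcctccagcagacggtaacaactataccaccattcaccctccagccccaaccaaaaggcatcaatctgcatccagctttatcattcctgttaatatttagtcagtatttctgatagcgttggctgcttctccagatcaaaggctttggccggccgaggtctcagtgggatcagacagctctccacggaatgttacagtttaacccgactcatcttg

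Motifs were searched on both strands by exact letters. TTGCNNAA was found in promoters of 5 of the 7 members (Orm2, Lcn2, Saa3, Hpx and Cp), and in 10.8% of all 32851 mouse promoters of the same length. The STAT letters TTCNNNGAA occurred in 1 of the 7 (Itih4), against 8.3% of all promoters. ACANNNTGT occurred in 1 of the 7 (Lcn2), against 6.85%, and the NF-kB letters GGGA and CC, with 4 bases of any kind between them, in 1 of the 7 (Cp), against 20.7%. A match describes letters in this window and is not a binding site.

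The values were log2 probe set signals after robust multi-array averaging (RMA). They were not compared between genes, because a probe set's brightness also depends on its probes. Array medians lay between 6.92 and 7.07, and replicate arrays of a group correlated at 0.992 to 0.997. In control cultures 14 of 16 measured hepatocyte markers read above the array median, as did 6 of 12 fibroblast and stellate markers (Col1a1, Col1a2, Col3a1, Dcn, Pdgfra and Vim). Of 14 macrophage and leukocyte markers 2 read above it, and of 11 neutrophil markers 0. These positions describe the signals, and no detection calls were used. APAP array 31 at 24 h lay farthest from the other arrays on the first principal component, which held 22.4% of the variance. The arrays numbered 32 at 6 h lay apart on the fourth, which held 7.64%. Values without these arrays stand beside the member differences they move most.

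At 24 h, called differences were found for Orm1, Hp, Lcn2 and Lect2. Orm1 and Hp fell with APAP. Orm1, Lcn2 and Lect2 fell with AMAP. Lcn2 was 1.96-fold higher with APAP than with AMAP. A call is an adjusted p below 0.05 in a limma fit of the 9 group means, with Benjamini-Hochberg adjustment over all 19938 genes. Both compounds were compared with the same 3 control arrays at each time. In bulk RNA, fewer cells of a type and less RNA per cell cannot be told apart.

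Against control at 24 h, 2 of the 10 members were called with APAP, both lower, where 9.33% of all genes were called and 5.97% were called lower. With AMAP, 3 of the 10 were called, all lower, where 0.727% of all genes were called and 0.416% were called lower. This AMAP count was not stable: in 9 settings that left out arrays, 0 to 1 members were called. Between the compounds, 1 of the 10 was called, higher with APAP, where 4.65% of all genes were called and 1.87% were called higher. The median difference of the members was -0.21 for APAP and -0.29 for AMAP, beside 0.02 and -0.01 over all genes.

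**Figure D1:**
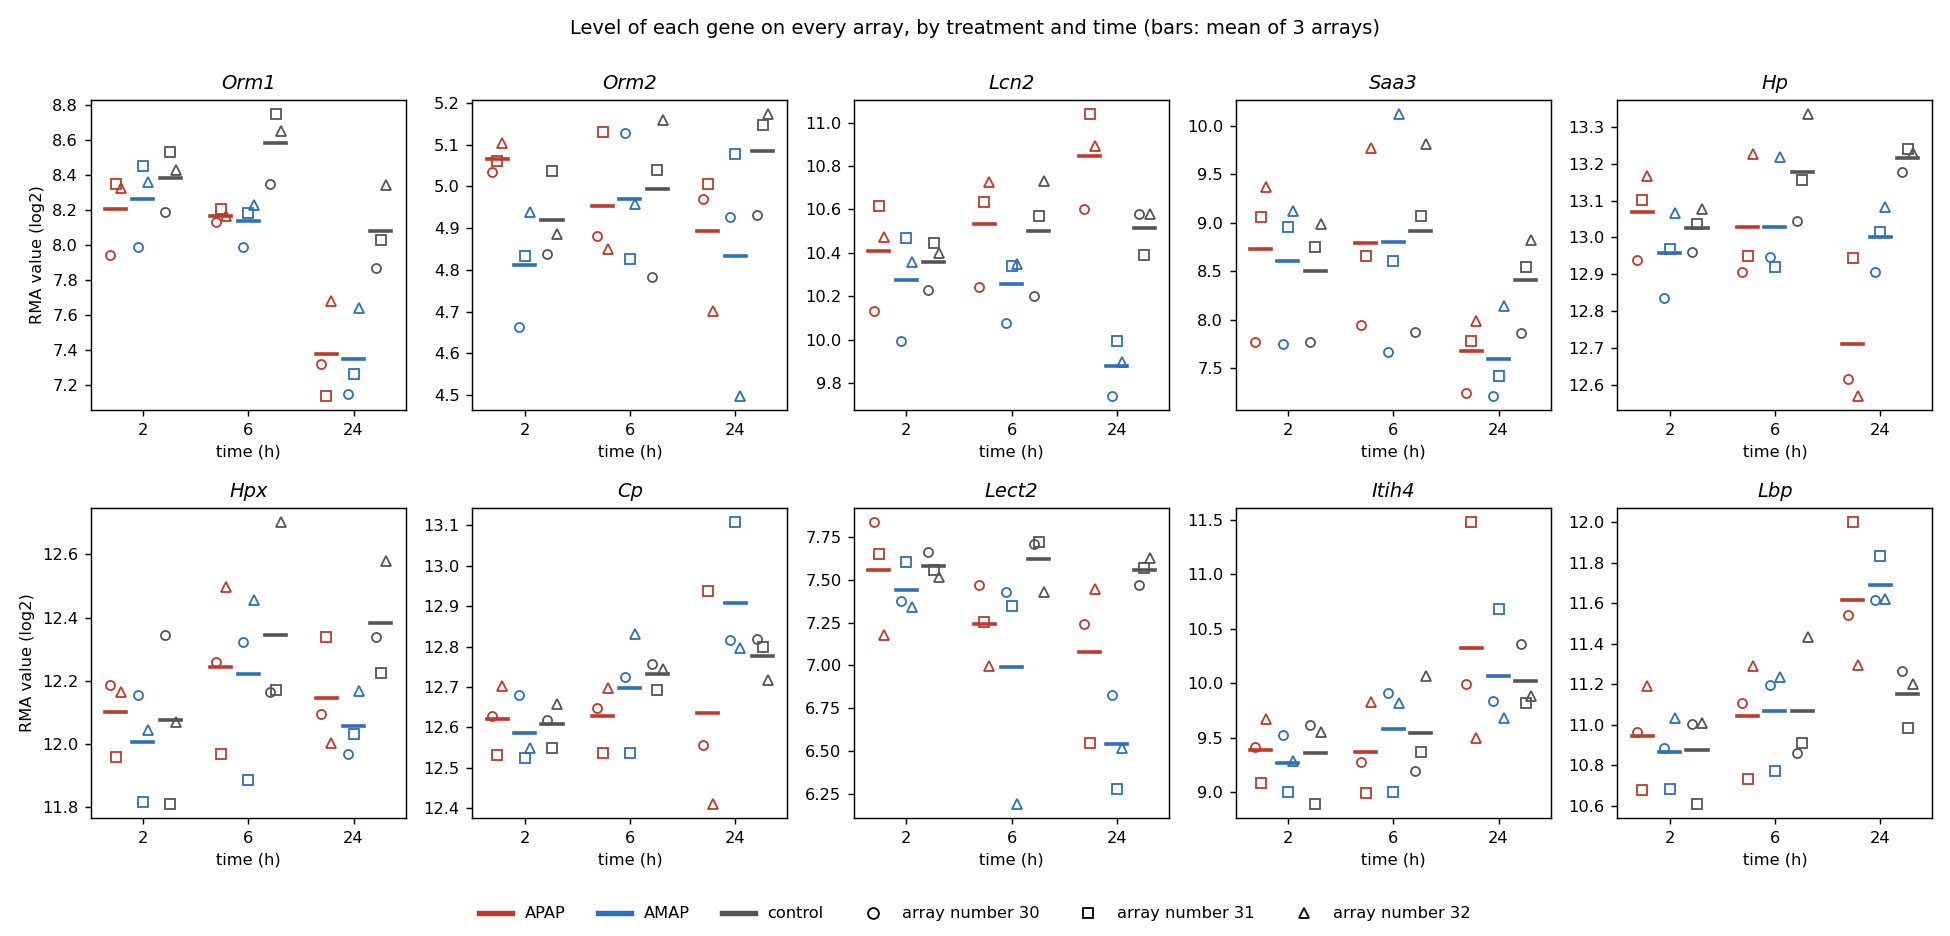
Log2 RMA signal of each member in every array (points), with group means (bars, n = 3), across APAP, AMAP and control at 2, 6 and 24 h. Orm1 at 24 h sits between 7.14 and 7.68 with APAP, against 7.87 to 8.34 in control, and Lcn2 at 24 h sits highest with APAP and lowest with AMAP.

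Orm1 encodes orosomucoid, a plasma glycoprotein that binds basic drugs and is a classic positive acute phase reactant. Its log2 signal at 24 h was 7.32, 7.14 and 7.68 in APAP cultures, 7.15, 7.26 and 7.64 in AMAP cultures, and 7.87, 8.03 and 8.34 in control cultures. Every array of either compound was below every control array. With APAP the mean was 7.38 ± 0.27 against 8.08 ± 0.24 in control (SD, n = 3 each), a difference of -0.70 ± 0.15 (SE), or 0.615-fold (limma adjusted p 0.00458). With AMAP the mean was 7.35 ± 0.26, a difference from the same controls of -0.73 ± 0.15, or 0.604-fold (limma adjusted p 0.0208). The compounds differed from each other in Orm1 by 0.03, with a 95% interval of -0.29 to 0.35, and by 0.15 without APAP array 31.

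The APAP call for Orm1 was kept when any single array of the comparison was left out, with an adjusted p of at most 0.0412. The AMAP call was lost without AMAP array 30 (adjusted p 0.0963), AMAP array 31 (0.127), control array 31 (0.0672) or control array 32 (0.148), with the difference between -0.60 and -0.87 over all single arrays left out. Across the 9 groups Orm1 ranged over 1.23 log2 units, highest in control at 6 h and lowest with AMAP at 24 h. In that order only the step between the 24 h control and 24 h APAP means was more than 2 standard errors.

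Orm2 encodes a second orosomucoid. Its signal was dim, 4.50 to 5.17, and below the array median on all 27 arrays. Its group means spanned 0.27, no neighbours in their order were separated, and none of the 9 treatment comparisons called it. Orm1, Orm2 and a further copy, Orm3, have similar sequences, so how their signals divide between probe sets is uncertain.

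Hp encodes haptoglobin, which captures free haemoglobin, and Hpx encodes hemopexin, which captures free haem. Hp read 12.62, 12.94 and 12.57 with APAP at 24 h, 12.91, 13.02 and 13.08 with AMAP, and 13.18, 13.24 and 13.23 in control. All 3 APAP arrays and all 3 AMAP arrays were below the controls. The APAP mean of 12.71 ± 0.20 stood against 13.22 ± 0.03 in control (SD, n = 3 each), a difference of -0.51 ± 0.11, or 0.705-fold (limma adjusted p 0.00291). The AMAP mean was 13.00 ± 0.09 and its difference of -0.21 did not pass, with a 95% interval of -0.43 to 0.00 (limma adjusted p 0.459).

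The APAP call for Hp was kept with each single array of the comparison left out, at adjusted p values up to 0.0190. Between the compounds Hp differed by -0.29 ± 0.11 (limma adjusted p 0.120). Equal array numbers deviated together in this comparison, and with the number as a block the adjusted p was 0.0452. Without APAP array 31 the difference was -0.41 (adjusted p 0.0294).

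Hpx read 12.10, 12.34 and 12.00 with APAP, 11.97, 12.03 and 12.17 with AMAP, and 12.34, 12.23 and 12.58 in control at 24 h. The AMAP arrays lay below all controls, and the APAP arrays overlapped them. Neither difference passed, at -0.24 with APAP (95% interval -0.57 to 0.10) and -0.32 with AMAP (-0.66 to 0.01).

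Cp encodes ceruloplasmin, the copper-carrying ferroxidase of plasma. It read 12.56, 12.94 and 12.41 with APAP, 12.82, 13.11 and 12.80 with AMAP, and 12.82, 12.80 and 12.72 in control at 24 h. The groups overlapped, and the differences from control were -0.14 (95% interval -0.36 to 0.07) with APAP and 0.13 (-0.09 to 0.34) with AMAP. Without APAP array 31 the APAP difference was -0.29 (limma adjusted p 0.0789). Between the compounds the difference was -0.27 (limma adjusted p 0.144), and without APAP array 31 it was -0.42 (adjusted p 0.0112).

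Lcn2 encodes lipocalin 2, which binds bacterial iron-carrying siderophores and is released by the inflamed liver. At 24 h it read 10.60, 11.04 and 10.89 with APAP, 9.74, 9.99 and 9.90 with AMAP, and 10.58, 10.39 and 10.58 in control. The 3 groups were fully separated, with APAP above control and AMAP below it. Group means were 10.85 ± 0.22 with APAP, 9.88 ± 0.13 with AMAP and 10.52 ± 0.11 in control (SD, n = 3 each). APAP exceeded AMAP by 0.97 ± 0.15, or 1.96-fold, with a 95% interval of 0.66 to 1.28 on the log2 scale (limma adjusted p 1.82e-04).

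Against control, Lcn2 fell with AMAP by 0.64 on the log2 scale, with a 95% interval of -0.95 to -0.33 (0.642-fold, limma adjusted p 0.0400). That call was lost when any 1 of the 6 AMAP and control arrays was left out, with adjusted p between 0.0781 and 0.155 and differences between -0.70 and -0.57. With APAP the difference from control was 0.33, with a 95% interval of 0.02 to 0.64, and did not pass (limma adjusted p 0.189). The APAP against AMAP call was kept in all 18 alternative settings, with differences of 0.87 to 1.09 and adjusted p up to 0.0248. In the order of the 9 group means APAP at 24 h was highest and AMAP at 24 h lowest, each separated from its neighbour by more than 2 standard errors.

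**Figure D2:**
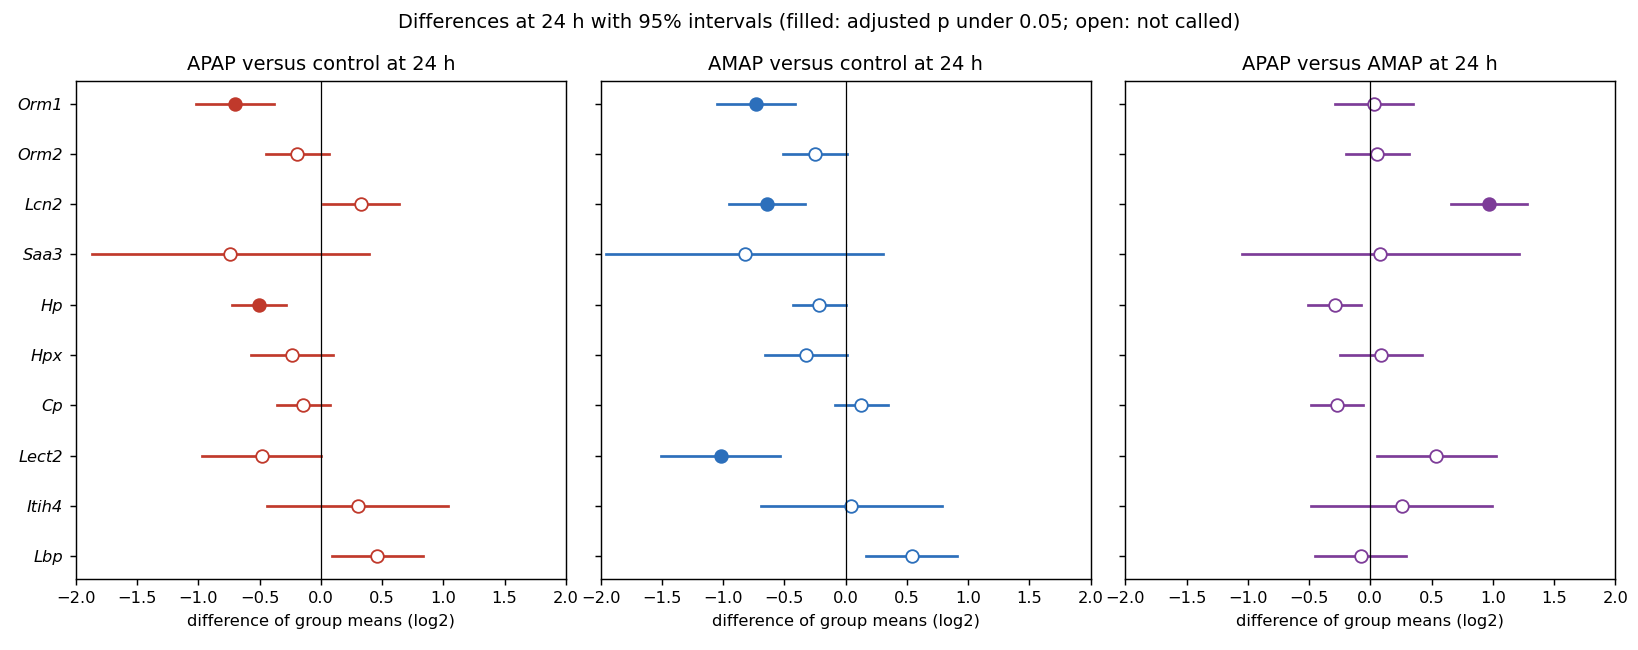
Differences in log2 signal at 24 h for the 10 members, with 95% intervals from the limma fit, for APAP against control, AMAP against control and APAP against AMAP. Orm1 lies near -0.70 for APAP and -0.73 for AMAP, while Lcn2 lies on opposite sides of 0 for the compounds.

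Saa3 encodes a serum amyloid A protein made by the liver and by other tissues in inflammation. At 24 h it read 7.24, 7.78 and 7.99 with APAP, 7.21, 7.42 and 8.14 with AMAP, and 7.87, 8.55 and 8.82 in control. The ranges overlapped, and neither difference passed: -0.74 with APAP (95% interval -1.87 to 0.39) and -0.82 with AMAP (-1.95 to 0.31). Its replicates differed more than those of any other member, with a standard error of 0.55 for a difference. Saa1 and Saa2, close relatives in sequence, averaged 3.89 and 4.87 in control cultures, below the array medians.

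The spread of Saa3 followed the array numbers. Its mean over the 9 groups was 7.68 on arrays numbered 30, 8.54 on those numbered 31 and 9.13 on those numbered 32. Number 30 was the lowest in 9 of 9 groups and number 32 the highest in 9 of 9. At 24 h, Saa3 differences from control between equal numbers were -0.62, -0.76 and -0.83 with APAP. With AMAP they were -0.65, -1.13 and -0.68. With the number as a block the limma adjusted p was 0.0389 with APAP, a call, and 0.0719 with AMAP. Over all genes, equal numbers did not pair in either comparison, by the rule given below. The number accounted for 56.0% of the variation of Saa3 over the 27 arrays and the group for 33.6%, with 2 and 8 of 26 degrees of freedom. For Orm1 the group held 84.1% and the number 9.53%, and for Lcn2 the group held 68.7% and the number 21.7%. The number held 0.204% for Cp and 0.702% for Itih4.

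**Figure D3:**
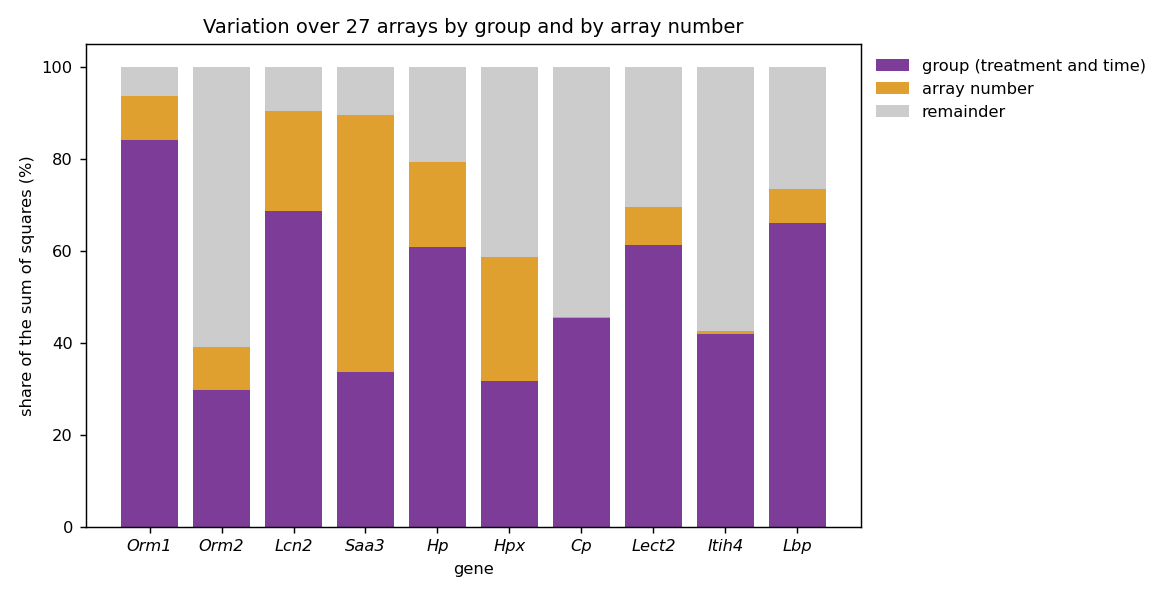
Percentage of each member's variation over the 27 arrays that fell to the group, to the array number and to the rest. Saa3 stands out with 56.0% for the array number, and Orm1 has the largest group share, 84.1%.

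Lbp encodes the lipopolysaccharide binding protein, which hands bacterial lipopolysaccharide to CD14. It read 11.54, 12.00 and 11.29 with APAP, 11.62, 11.83 and 11.62 with AMAP, and 11.27, 10.98 and 11.20 in control at 24 h. All arrays of both compounds lay above all controls. The differences of 0.46 ± 0.18 with APAP (limma adjusted p 0.113) and 0.54 ± 0.18 with AMAP (limma adjusted p 0.187) did not pass the adjusted threshold. Without APAP array 31 the first was 0.27. Lbp was the only member with every array of both compounds above control at 24 h. All APAP arrays lay above control for 2 of the 10 members, against 13.3% of all genes, and below it for 3, against 13.7%. All AMAP arrays lay above control for 1, against 8.71%, and below it for 5, against 10.7%.

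Itih4 encodes an inter-alpha-trypsin inhibitor heavy chain family protein, an acute phase reactant in several mammals. It read 9.99, 11.48 and 9.50 with APAP, 9.84, 10.68 and 9.68 with AMAP, and 10.36, 9.82 and 9.88 in control at 24 h. APAP array 31 was the highest of all 27 arrays. The APAP difference was 0.30 with that array and -0.28 without it, neither called, and the AMAP difference was 0.05 (95% interval -0.69 to 0.78). The mean of the 16 hepatocyte markers was also highest in APAP array 31, at 11.03, against 10.48 and 10.24 in the other APAP arrays at 24 h. The part of these markers in the result was not tested.

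Lect2 encodes leukocyte cell-derived chemotaxin 2, a hepatokine that attracts neutrophils and acts on muscle. At 24 h it read 7.24, 6.55 and 7.44 with APAP, 6.83, 6.28 and 6.51 with AMAP, and 7.47, 7.57 and 7.63 in control. All arrays of both compounds were below the controls, and all 3 AMAP arrays were also below their array medians. The AMAP mean of 6.54 ± 0.28 stood against 7.56 ± 0.08 in control (SD, n = 3 each), a difference of -1.02 ± 0.24, or 0.493-fold (limma adjusted p 0.0374).

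The AMAP call for Lect2 was kept without AMAP array 30 (adjusted p 0.0403). It was lost without AMAP array 31 (0.211) or 32 (0.0953), or without control array 30 (0.0873), 31 (0.125) or 32 (0.135), with differences between -1.16 and -0.89. With APAP the difference was -0.48 (95% interval -0.97 to 0.01, limma adjusted p 0.230), and it was -0.22 without APAP array 31. The compounds differed by 0.54 in Lect2 (95% interval 0.05 to 1.02, limma adjusted p 0.208), and by 0.80 without APAP array 31 (limma adjusted p 0.0593).

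The regioisomers were compared in 30 pairs of values, 10 members at 3 times and equal dose. Lcn2 at 24 h was the 1 pair called after adjustment over all genes in the fit without a block, and the 30 differences ran from -0.29 to 0.97. With the array number as a block, Hp at 24 h was also called (limma adjusted p 0.0452). At 24 h the interval of the APAP minus AMAP difference was -0.20 to 0.32 for Orm2, -1.05 to 1.21 for Saa3, -0.24 to 0.42 for Hpx, -0.48 to 1.00 for Itih4 and -0.45 to 0.29 for Lbp. Without APAP array 31 the Itih4 difference turned from 0.26 to -0.32, the Hpx difference from 0.09 to -0.01, and the Lbp difference was -0.27 in place of -0.08, none of them called. A missed threshold does not show that the compounds act alike on these genes. All APAP arrays lay above all AMAP arrays for 1 member at 24 h, Lcn2, against 12.3% of all genes.

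At 6 h no member was called by limma against control, where 2.50% of all genes were called with APAP and 0.456% with AMAP. An unadjusted p below 0.05 was reached by 1 member with APAP and by 2 with AMAP. At this unadjusted threshold, 2444 of the 19938 genes passed with APAP and 1889 with AMAP. Orm1 read 8.13, 8.20 and 8.17 with APAP, 7.99, 8.18 and 8.23 with AMAP, and 8.35, 8.75 and 8.65 in control. Each compound's arrays were all below the controls, with a difference of -0.42 for APAP (limma adjusted p 0.203) and -0.45 for AMAP (limma adjusted p 0.287). Array numbers paired at 6 h in both comparisons, and with the number as a block the adjusted p was 0.0317 for APAP and 0.0461 for AMAP. Without the arrays numbered 32 at 6 h the difference was -0.38 with APAP and -0.46 with AMAP.

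Lect2 at 6 h read 7.47, 7.26 and 6.999 with APAP, 7.43, 7.35 and 6.19 with AMAP, and 7.71, 7.72 and 7.43 in control. The AMAP arrays were all below the controls, but barely, with 7.427 as the highest AMAP value and 7.429 as the lowest control value. The AMAP difference was -0.63 ± 0.24 (limma adjusted p 0.338). Without the arrays numbered 32 at 6 h the difference was -0.33. All APAP arrays at 6 h were below all controls for 1 member, against 8.58% of all genes, and all AMAP arrays for 2, against 5.87%. Between the compounds at 6 h 0 of 10 were called by limma and 0 had an unadjusted p below 0.05. There 0.707% of all genes were called, and 1477 of the 19938 had an unadjusted p below 0.05.

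At 2 h limma called 0 of 10 members with APAP, with AMAP and between the compounds, and 0 had an unadjusted p below 0.05. Of all genes 0.682% were called with APAP, 0.181% with AMAP and 0.261% between the compounds. In that order, 1846, 1356 and 1860 of the 19938 genes had an unadjusted p below 0.05. Member differences at 2 h lay between -0.18 and 0.23 with APAP and between -0.14 and 0.10 with AMAP.

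In the control cultures alone, limma called 0 of 10 members at 6 h against 2 h, at 24 h against 6 h or at 24 h against 2 h, where 0.707%, 0.0150% and 1.14% of all genes were called. An unadjusted p below 0.05 was reached by 0, 1 and 0 members, and by 1861, 1533 and 2797 of the 19938 genes. The 1 member was Orm1, whose control mean was 8.08 at 24 h against 8.58 at 6 h, a difference of -0.50 ± 0.15 (limma adjusted p 0.318). Hp, Cp and Itih4 were higher in all 24 h controls than in all 2 h controls, 3 of 10 members against 10.2% of all genes.

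Whether the effect of a compound changed with time was tested for 2 compounds and 3 pairs of times. Limma called 0 of the 60 member values, and 8 had an unadjusted p below 0.05, 4 of them for AMAP at 24 h minus 2 h. In that comparison 937 of the 19938 genes had an unadjusted p below 0.05. Over the 6 comparisons this number ran from 680 to 1886. Of all genes, 0%, 0.0100% and 0.356% were called for APAP at 6 h minus 2 h, 24 h minus 6 h and 24 h minus 2 h, and 0.00502%, 0% and 0% for AMAP. The difference nearest to a call was that of Hp with APAP, -0.55 ± 0.15 at 24 h minus 2 h (limma adjusted p 0.120).

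Among the other genes listed as positive acute phase genes, 28 were measured and 2 rose with APAP at 24 h, where 3.36% of all genes were called higher. Serpina3n, a serine protease inhibitor, averaged 9.36 with APAP against 7.93 in control, a difference of 1.43 ± 0.33 (limma adjusted p 0.00634), and exceeded AMAP by 1.55 ± 0.33. Without APAP array 31 the difference from control was 0.85 (adjusted p 0.0642), and without AMAP array 32 the difference from AMAP had an adjusted p of 0.0525. Saa4, on this list although it is a constitutive serum amyloid A, was dim, at 5.57 with APAP against 5.11 in control. With AMAP 0 of the 28 were called against control. The median difference of the 28 was 0.14 with APAP, beside 0.02 over all genes. Of 13 negative acute phase genes 1 fell with APAP, where 5.97% of all genes were called lower. It was Serpina7, which encodes thyroxine-binding globulin, with a difference of -1.54 ± 0.33 (limma adjusted p 0.00310).

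Of 27 other hepatokine genes measured at 24 h, APAP raised 2 and lowered 2, where 3.36% of all genes were called higher and 5.97% lower, and 0 were called with AMAP. These shares are the background for each list's counts with APAP below. Mst1, the macrophage-stimulating protein, rose by 0.77 ± 0.11 (limma adjusted p 6.11e-05), and Angptl4, an inhibitor of lipoprotein lipase, rose by 0.63 ± 0.15. Hgf, hepatocyte growth factor, had a difference of -1.02 ± 0.24, and Igf1, insulin-like growth factor 1, one of -0.89 ± 0.26. The Angptl4 call was lost without APAP array 31 (0.49, adjusted p 0.0696), the Hgf call without APAP array 32 (-0.66, adjusted p 0.0629), and the Igf1 call without any 1 of 5 of the 6 arrays. Mst1 and Angptl4 were also called higher with APAP than with AMAP, by 0.47 and 0.60. The median of the list was 0.08 with APAP and -0.00 with AMAP.

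**Figure D4:**
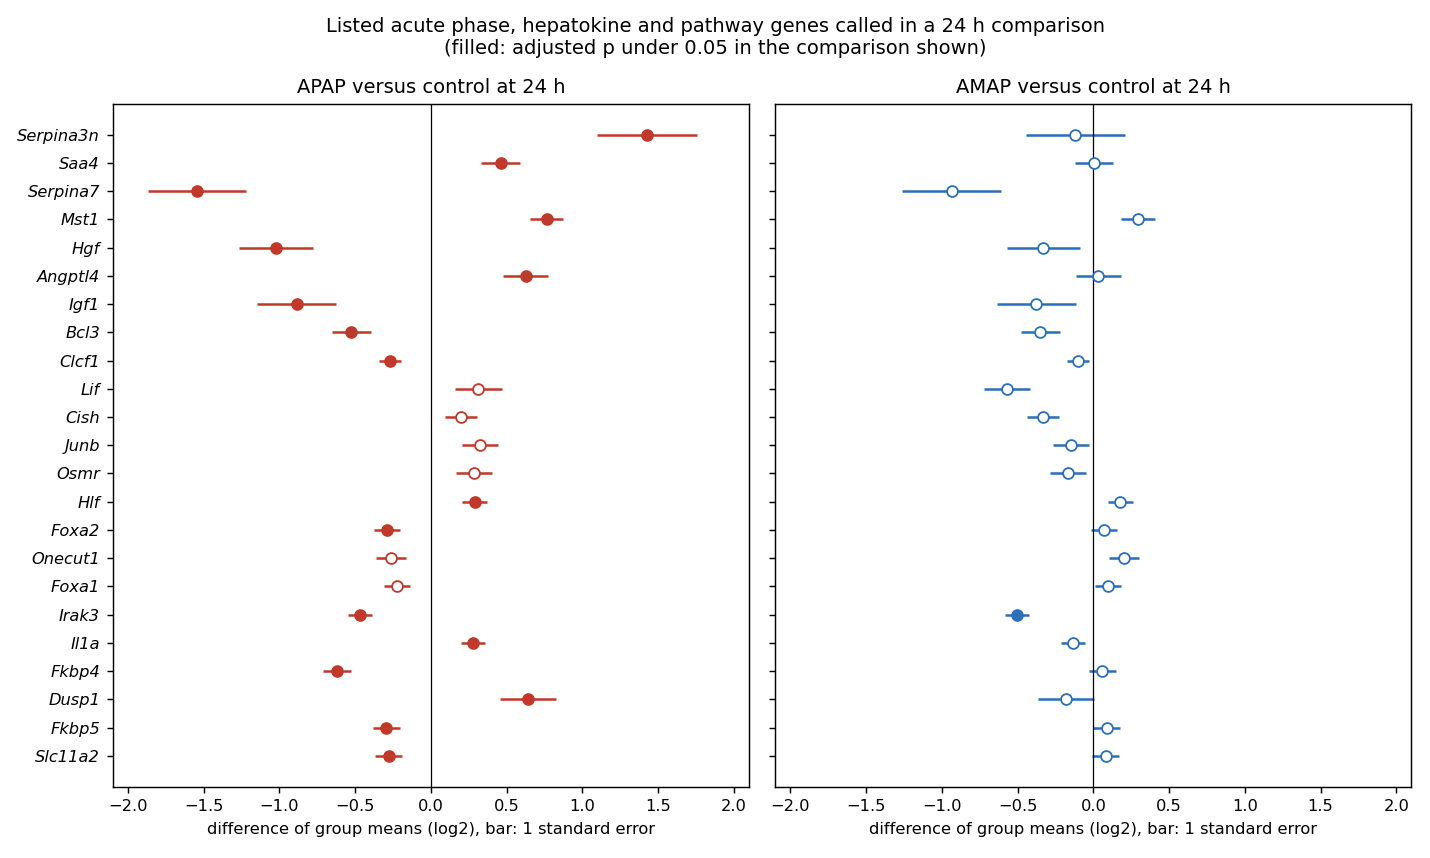
Differences in log2 signal at 24 h, APAP against control and AMAP against control (bars, 1 standard error, and filled points, called in the comparison shown). Drawn are listed genes called in any treatment comparison at 24 h, without the cell type marker lists. Serpina3n reaches 1.43 and Serpina7 -1.54 with APAP, and Irak3 is lower with both compounds.

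Of 29 genes of interleukin 6 and STAT3 signalling, 0 rose and 2 fell with APAP at 24 h. Bcl3, an NF-kB cofactor induced by STAT3, differed by -0.52 ± 0.13 (limma adjusted p 0.0105), and Clcf1, an interleukin 6 family cytokine, by -0.27 ± 0.07. Clcf1 had also fallen at 2 h, by 0.44 with APAP and by 0.46 with AMAP.

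Between the compounds at 24 h, 4 of these 29 genes were higher with APAP and 0 lower, where 1.87% of all genes were called higher. Lif, leukemia inhibitory factor, averaged 8.89 with APAP, 8.01 with AMAP and 8.58 in control, and APAP exceeded AMAP by 0.88 ± 0.15 (limma adjusted p 6.85e-04). Cish, a STAT-induced inhibitor of cytokine signalling, exceeded it by 0.53, Junb, an immediate early transcription factor, by 0.47, and Osmr, the oncostatin M receptor subunit, by 0.46. Lif had also differed at 6 h, by 0.78 ± 0.15. Stat3 and Socs3 were called in none of the 3 comparisons at 24 h, with Socs3 differences of -0.16 with APAP and -0.31 with AMAP.

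Of 18 C/EBP and other hepatic regulators, 1 rose and 1 fell with APAP at 24 h. Hlf, a PAR-family factor, rose by 0.29 but stayed dim, and Foxa2, a liver forkhead factor, differed by -0.29 ± 0.08 (limma adjusted p 0.0282). Between the compounds 3 of the 18 were lower with APAP, where 2.78% of all genes were called lower: Onecut1 fell by 0.47 on the log2 scale, Foxa2 fell by 0.36 and Foxa1 fell by 0.32 relative to AMAP. Cebpb, a main mediator of the acute phase response, was not called, with -0.01 with APAP and -0.33 with AMAP.

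Of 26 genes of interleukin 1, tumour necrosis factor and NF-kB signalling, Irak3 fell with both compounds at 24 h. Irak3, an inhibitory kinase-like protein of the interleukin 1 receptor pathway, averaged 9.97 with APAP, 9.93 with AMAP and 10.43 in control. The differences were -0.47 ± 0.08 with APAP (limma adjusted p 4.44e-04) and -0.50 ± 0.08 with AMAP (limma adjusted p 0.00203). It was the only gene outside the 10 members on any of the lists that was called with AMAP at 24 h. Il1a, interleukin 1 alpha, was called higher with APAP by 0.28 at a dim level of 4.98.

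Of 21 glucocorticoid receptor genes and targets at 24 h, 2 were called higher with APAP and 2 lower. Fkbp4, a co-chaperone of steroid receptors, differed by -0.62 ± 0.09 from control (limma adjusted p 8.77e-05) and by -0.68 from AMAP. Fkbp5, a glucocorticoid-induced co-chaperone, differed by -0.29 from control. Dusp1, a glucocorticoid-induced phosphatase, rose by 0.64 and was 0.82 above AMAP, and Angptl4, given above, is also on this list. Nr3c1, the receptor gene, differed by 0.04 with APAP and by -0.15 with AMAP, neither called.

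Of 26 genes of iron and haem handling and of receptors for the members, 1 fell with APAP at 24 h. Slc11a2, an iron transporter, differed by -0.28 ± 0.09 (limma adjusted p 0.0491). Of 13 lipopolysaccharide recognition genes, 0 were called at 24 h. Cd14, a receptor to which Lbp delivers lipopolysaccharide, fell at 6 h by 0.40 with APAP and by 0.34 with AMAP.

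Calls of listed genes were recomputed with each single array of the comparison left out. Of 51 such calls over the 9 treatment comparisons, 14 were kept whichever array was left out and 37 were lost without at least 1 array. At 24 h the calls kept throughout were Serpina7, Mst1, Bcl3, Fkbp4 and Irak3 with APAP, Irak3 with AMAP, and Lif, Cish, Il1a and Fkbp4 between the compounds. Among the others, Saa4, Clcf1 and Dusp1 with APAP were kept in 3 of 6 cases, Hlf, Fkbp5 and Il1a in 2, Slc11a2 and Vim in 1, and Foxa2 in 0. Between the compounds, Onecut1 and Foxa2 were kept in 5 of 6, Mst1 and Dusp1 in 4, Junb and Angptl4 in 3, Osmr in 2, and Foxa1 in 1. The fall of Cd14 at 6 h was kept in 6 of 6 with APAP and in 0 of 6 with AMAP, and the Lif difference at 6 h in 3 of 6.

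Hepatocyte markers at 24 h averaged 10.58 with APAP (arrays 10.24 to 11.03), 10.62 with AMAP (10.39 to 10.86) and 10.43 in control (10.31 to 10.67), and 0 of 16 were called. Neutrophil markers, of interest because neutrophils also make Lcn2, averaged 5.60, 5.58 and 5.56 in APAP, AMAP and control cultures, with 0 of 11 above the array median. Of 12 fibroblast and stellate markers 6 were above the array median in control, and 2 fell with APAP, Pdgfra by 0.41 and Vim by 0.24. Their part in the results was not tested.

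For each member with a call, the 2 genes with the most similar pattern over the 9 group means were found among 2240 genes with a mean of at least 7 and a range of at least 0.5. Orm1 was most like Parp12 and Anxa1, each with a Pearson r of 0.982. Hp was most like Ubd (0.964) and Mras (0.955). Lcn2 was most like Abcb1b (0.955), which also ran from 8.95 with AMAP at 24 h up to 10.25 with APAP at 24 h, and St14 (0.948). Lect2 was most like Vcan (0.949) and Stard6 (0.946). The 9 means come from the same arrays, so these values describe likeness only.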

How the data were processed

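Total RNA of 27 TAMH samples was hybridised to Affymetrix Mouse Gene 1.0 ST arrays, 1 array per sample. The authors deposited 1 table of log2 signals of 35557 probe sets, made with RMA in Affymetrix Expression Console 1.1, per the submitters' processing notes. The log base is read from the range of the values. The build behind the probe sets is not given in the sources used here, nor are detection calls.

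Probe sets were named from the platform annotation: 21789 had 1 symbol, 1621 had several and were left out, and the probe set with the highest mean was kept for each of 19938 genes. Values were used as deposited. A model of the 9 group means was fitted with limma 3.58.1 in R 4.3.3 and adjusted by Benjamini-Hochberg. RMA pulls low signals together, so differences of dim genes may be understated, and the number of arrays, 3 per group, limits precision. The fit was tested on simulated data.

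Members and gene lists were chosen with earlier results of these data known. Of 294 list entries 271 were matched. In each list and comparison, genes named were taken from up to the 3 called with the smallest p. Some calls before 24 h were not described above. At 2 h Flvcr1 was higher with APAP, and Dusp1 higher with APAP than with AMAP. At 6 h, against control, APAP raised Socs2 and lowered Onecut1, Irak3, Sgk1, Pdgfra and Clcf1, and AMAP lowered Lif. Onecut1 was also lower with APAP than with AMAP at 6 h. Of these calls only that of Sgk1 was kept whichever array was left out. Igf1, Osmr, Fkbp5 against control and the genes without a call, such as Saa1, Saa2 and Cebpb, were named after their values were seen.

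Equal array numbers were said to pair where all 3 same-numbered pairs correlated above 0.1 in their deviations, which held in 5 of the 9 treatment comparisons. The main calls used no block in any comparison, also where the numbers paired, and values with the block are alternatives. Over comparisons these correlations ran from -0.12 to 0.47. Alternatives were the number as fixed or random block, only the arrays compared, another variance prior, array weights, 2 scalings, a filter on dim genes, the mean of all probe sets and leaving out arrays. Leaving out the arrays numbered 32 at 6 h was chosen after seeing the data.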

Additional observations from a re-analysis of the deposited data

Results flagged for a closer look

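Lcn2 at 24 h drew attention because all 3 APAP arrays lay above all control arrays while all 3 AMAP arrays lay below them. The difference between the compounds, APAP minus AMAP, was 0.968 on the log2 scale (limma adjusted p 1.82e-04). It comes from the same arrays that drew attention, so it is no separate support for opposite effects. Against control the APAP difference of 0.33 was not called (limma adjusted p 0.189). The lowest APAP array read 10.60 and the highest control array 10.58.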

How the results depend on the processing

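For the 29 member differences that lay at least 2 standard errors from 0 or were called with the block, none of 575 recomputed values reversed: 532 kept their direction and side of the threshold, 28 lost the call and 15 gained one. Member differences nearer 0 did turn: without APAP array 31, 3 of 20 at 24 h changed sign (Itih4 from 0.30 to -0.28 against control and from 0.26 to -0.32 against AMAP, and Hpx against AMAP), and without the arrays numbered 32, 7 of 30 at 6 h did, 0 of them called. The Lcn2 difference between the compounds was called in all 18 alternatives, and the APAP differences of Orm1 and Hp against control in 17 of 18 each. Orm1 with APAP was lost without replicate 31 in all groups (adjusted p 0.139) and Hp with APAP without replicate 30 (0.0784). The AMAP calls were less stable: Orm1 held in 10 of 18, Lcn2 in 9 and Lect2 in 9, with adjusted p up to 0.347, 0.286 and 0.446. Orm1 with AMAP was also lost with only the compared arrays (0.0637), and Lect2 with AMAP with the trended robust prior (0.0760). With the replicate number as a fixed block, the number of members called was 1 for APAP against control at 6 h, 1 for AMAP against control at 6 h, 4 for APAP against control at 24 h, 2 for APAP against AMAP at 24 h and 1 for the APAP effect at 24 h minus 2 h. The calls gained for APAP at 24 h against control were Lcn2 (adjusted p 0.0274) and Saa3 (0.0389). Over all genes the numbers did not pair the samples in this comparison. The APAP minus control differences of Saa3 between equal numbers were -0.62, -0.76 and -0.83. The block changed no other call, and 25 of 27 arrays correlated best with an array of their own number. With array weights, 2 members were called for APAP against AMAP at 24 h and 1 for the APAP effect at 24 h minus 2 h. Leaving out arrays gave 0 to 1 members for AMAP against control at 24 h, 1 to 3 for APAP against control, 1 to 3 for APAP against AMAP, 0 to 1 for the APAP effect at 24 h minus 2 h, and 0 to 0 for each of the other comparisons. For listed genes outside the 10, 51 called differences were recomputed 923 times: 642 stayed called, 281 lost the call and 0 reversed. Orm2 did not pass the filter on dim genes, so it has no value there. The causes of these changes were not tested. Leaving out arrays also makes the number of arrays smaller, and its part was not tested either. The largest shift of the median of all genes that centring removed was 0.03.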
